A study of Saccharomyces cerevisiae with 66 samples.

Results

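The mating locus (MAT) on chromosome III served as the viewpoint (VP) in MATa cells grown in glucose, in which no mating-type switch had been induced. The comparison set 2 libraries of the targeted strain (MATa D) against 2 libraries of its control (Ctrl_a D), 4 of the 66 libraries of the series. The values lay in 1 deposited table of 4824 nucleosome-depleted regions (NDRs), of the 4828 listed over all 21 tables, and all its NDRs were taken, by chromosome, by distance from MAT and by distance from the chromosome ends. One NDR had no read in any library, which left 4823 to be tested.

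In MTAC, a fusion of the Lac repressor (LacI) and M.CviPI, a methyltransferase that modifies the C of GC dinucleotides, is brought to an array of LacO sites, and methylated DNA is recovered with an antibody and sequenced. Both strains were haploid budding yeast of the w303 background. Both carried the LacI-M.CviPI fusion at ADH1, placed under a LexA-ER-VP16 activator that answers to β-estradiol. They were also taken to carry the HO endonuclease under the GAL10 promoter, as the strains of the study's switching assay do, to which the labels D and G belong. The study lists MAT strains without HO as well. The targeted strain had 256 LacO copies and a HIS3 marker beside TAF2, the neighbor of MAT, and the control differed in having no LacO. Expression of the fusion was induced with 2 nM β-estradiol for 2 h in both. As well, 3 other comparisons were set beside this one. MATa G was taken as the same strains after galactose had induced HO. Its cells were a mixture of switched and unswitched ones and also differed in carbon source. MATα D was the same VP in unswitched cells of the other mating type. YBP2 at 2 h was a VP on chromosome VII in a strain without the HO construct. MATa G and MATα D had controls of their own. The control of YBP2 was taken to be the 2 h control without a mating-type label, so no library was shared with MATa D.

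The mating type of yeast is set by the allele at MAT. Both alleles also lie silent near the ends of chromosome III, at HML on the left and at HMR on the right, and when HO cuts MAT 1 of them is copied into it. MATa cells mostly choose HML, although HMR is closer, and this choice depends on the recombination enhancer (RE), a short stretch between KAR4 and SPB1 on the left arm that binds forkhead proteins in MATa cells and is switched off by the α2 repressor in MATα cells. The silent cassettes and the telomeres are both bound by Sir proteins, and yeast telomeres gather at the nuclear envelope. The ends of the chromosomes carry X elements and, at many ends, Y′ elements, which are alike between ends.

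The NDR that lay in the RE interval and 4 of the NDRs found far from the VP are shown because the results below turn on them. Each is the 200 bases from the start of the NDR on the top strand of the reference genome (RefSeq, R64, the assembly of sacCer3), 5′ to 3′, with each GC dinucleotide, the site of M.CviPI, in capitals. The first starts 41 bases after KAR4 and runs 69 bases into the annotated RE. The second covers the last bases of the BAR1 reading frame and what follows it. The third and the fourth lie inside the reading frames of TBS1 and ASG1, and the last lies in the telomeric region at the left end of chromosome XV.
RE interval, chrIII:28977-29176: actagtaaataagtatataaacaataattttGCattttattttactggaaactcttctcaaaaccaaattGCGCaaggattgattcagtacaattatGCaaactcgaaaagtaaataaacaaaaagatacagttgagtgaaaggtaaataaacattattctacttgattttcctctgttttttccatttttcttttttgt
End of BAR1, chrIX:324040-324239: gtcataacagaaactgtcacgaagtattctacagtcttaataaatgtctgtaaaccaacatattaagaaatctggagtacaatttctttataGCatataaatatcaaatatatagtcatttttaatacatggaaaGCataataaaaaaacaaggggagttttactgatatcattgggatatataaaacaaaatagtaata
TBS1, chrII:541412-541611: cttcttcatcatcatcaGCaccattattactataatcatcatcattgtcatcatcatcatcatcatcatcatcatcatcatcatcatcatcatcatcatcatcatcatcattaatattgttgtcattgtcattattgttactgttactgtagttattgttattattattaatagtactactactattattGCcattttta
ASG1, chrIX:105311-105510: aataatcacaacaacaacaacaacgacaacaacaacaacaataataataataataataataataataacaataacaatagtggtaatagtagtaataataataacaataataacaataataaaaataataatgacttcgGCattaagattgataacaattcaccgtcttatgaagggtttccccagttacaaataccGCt
Left end of chromosome XV, chrXV:468-667: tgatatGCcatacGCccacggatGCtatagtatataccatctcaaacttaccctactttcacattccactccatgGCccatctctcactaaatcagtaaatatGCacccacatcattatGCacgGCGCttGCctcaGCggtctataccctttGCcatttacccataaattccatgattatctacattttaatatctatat

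The RE window held 4 GC sites, against a median of 7 over all windows of that length. The windows at the end of BAR1, in TBS1 and in ASG1 held 2 each, and the window at the end of chromosome XV held 11. The TBS1 and ASG1 windows contained perfect runs of a 3-base unit of 63 and 27 bases, and a run of at least 24 bases was found in 0.415% of all windows. Such runs were looked for after values had been seen, and 2 of the 23 windows called beyond 30 kb held one of that length. None of the 5 windows held the forkhead motif GTAAACA, found in 4.54% of all windows, CATGTNA, the half-site of α2, found in 8.21%, or CCNAANNNG, the first 9 positions of the Mcm1 box, found in 20.7%, on either strand. The annotated RE (chromosome III, 29108 to 29809) held 1 match to the α2 half-site, which lay beyond the window, and none to GTAAACA or CCNAANNNG. A variant of the forkhead motif, ATAAACA, was searched after the RE window had been read: the window held 3 matches, and 3 of the 4823 windows held that many, while 8.63% held at least 1. A match here is a match of letters only, and forms of the motifs other than those given were not searched. The missing matches therefore do not show that the RE lacks sites for these proteins.

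An NDR was called when its log2 fold change, targeted over control, exceeded 0.7 and its adjusted p was under 0.05. Over the 4823 tested NDRs, 35 were called higher in the targeted strain (0.726%) and none was called lower. Without adjustment, 149 NDRs were higher and 49 lower at a p under 0.05, and the smallest adjusted p among the lower ones was 0.285. Of the calls, 12 were local, up to 30 kb from the midpoint of TAF2, 4 were far-cis, beyond that on chromosome III, and 19 were in trans, on other chromosomes. The table gives no value per library. The spread between libraries therefore enters only through the standard error (SE) of each log2 fold change. Each SE rests on 2 libraries a group, which the study describes as biological replicates, and on the authors' fitted model. The p-values are thus not a plain measure of the spread between libraries. Levels of each strain are worked out below from the base mean, the mean normalized read count over the 4 libraries, and the log2 fold change, and are approximate because the deposited log2 fold changes are pulled toward 0.

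The called NDRs had base means of 31.3 or more, with a median of 185, against a median of 23.6 over all NDRs. With the NDRs ordered by base mean and cut into 5 groups of equal size, 1 NDR in the lower 3 groups was called, and 32 of the 35 lay in the top group. In that group the median log2 fold change was -0.11, and in the lowest group it was 0.06. Below a base mean of 31.3 a difference of the size of most calls was not detectable at this depth.

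**Figure D1:**
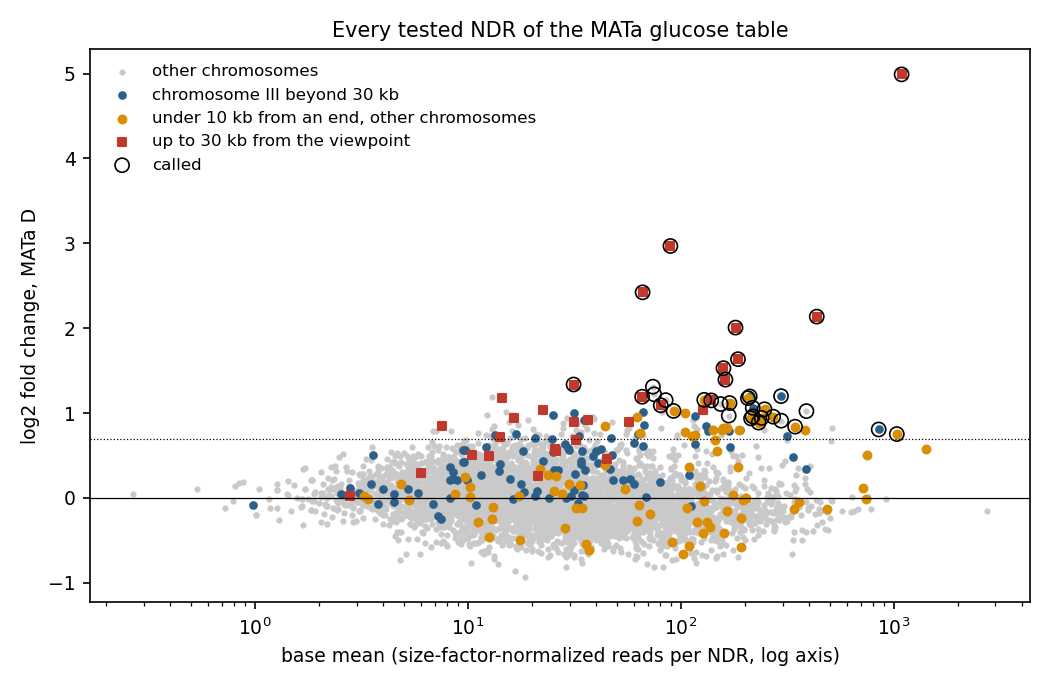
Each point is 1 of the 4823 tested NDRs of MATa D, by base mean (normalized reads, log axis) and log2 fold change of the targeted strain over the control. Circles mark the 35 called NDRs, all at base means of 31.3 or more, and the dotted line is the 0.7 cutoff.

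All 30 local NDRs had log2 fold changes above 0, and their median was 0.99, against -0.01 over all NDRs. The highest of the table lay beside YCR043C, 3.39 kb to the right of the TAF2 midpoint (III, 206679), at a log2 fold change of 4.99 (SE 0.24, adjusted p = 4.13e-89). Its worked-out levels were 2109 normalized reads in the targeted strain and 66.4 in the control. It lies on the far side of TAF2 from MAT, and no other local NDR came near its level.

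The next 3 were neighbors of it. The NDR between IMG1, a mitochondrial ribosomal protein gene, and RRT12 (III, 210455) had a log2 fold change of 2.97 (SE 0.32). PER1, which acts on GPI-anchored proteins, had 2.42 (SE 0.32) at its start (III, 207961). The NDR shared by BUD23, an 18S rRNA methyltransferase gene, and ARE1, a sterol acyltransferase gene (III, 211627), had 2.14 (SE 0.22). Within 10 kb to the right 4 of 5 NDRs were called, the exception being that between TAF2 and SUT035 (III, 205432) at 0.50 (SE 0.37). Worked-out levels were 708 normalized reads in the targeted strain and 161 in the control at BUD23 and ARE1.

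Farther right, 4 of 6 NDRs at 20 to 30 kb were called. TVS1 and TAH1 (III, 225239) had the largest of these, at 2.01 (SE 0.25), and YIH1, an inhibitor of Gcn2 activation, had 1.53 (SE 0.26) at III, 224250. The NDR at BUD31, a splicing factor gene, and HCM1, a forkhead transcription factor gene (III, 228759), had 1.39 (SE 0.26). On the left side the highest local value was that of RPS14A, a ribosomal protein gene, at 1.63 (SE 0.25) and 25.0 kb from the VP (III, 178244).

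The sides differed in counts. To the right of the VP, 10 of 15 local NDRs were called, with a median log2 fold change of 1.34. To the left, 2 of 15 were called, at RPS14A and inside TAF2 (III, 202559, log2 fold change 1.09, SE 0.30), and the median was 0.71. The coordinate of the array was not used here. Distances were taken from the midpoint of TAF2, and putting the VP at the NDR with the highest value changed neither the local nor the long-distance count.

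The MAT cassette itself gave little signal. The NDR at the divergent promoter of the α genes (III, 200208) lies in sequence that the reference holds at MAT but that MATa cells hold only at HML, and every 50-base word of its window occurs again elsewhere. Its base mean was 2.80, or 0.119 of the median of the table, against 19.3, or 1.09 of the median, in the MATα D table. The corresponding NDR inside HML (III, 13048) had base means of 3.79 in MATa D and 19.3 in MATα D. These levels matched the labelled mating types. They are set across tables that were normalized separately, and at such a level the log2 fold change of 0.02 (SE 0.29) at MAT could not show a contact or its absence.

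Beyond 30 kb, chromosome III as a whole stood above the other chromosomes. Of its 100 NDRs beyond 30 kb, 88 had a log2 fold change above 0, with a median of 0.34. On the other 15 chromosomes the share above 0 was 41.6% to 57.5% and the median lay between -0.06 and 0.03. The same 100 NDRs had medians of 0.11 in MATα D, 0.06 in MATa G and -0.06 at YBP2, with 80, 58 and 41 above 0. At no single one of them was the difference between MATa D and MATα D significant after adjustment over all shared NDRs, while 75 of the 100 were higher in MATa D.

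Along the chromosome the level fell off and then came back on both sides. The median log2 fold change was 1.09 within 10 kb of the VP, 0.92 at 20 to 30 kb and 0.69 at 30 to 50 kb, counting both sides. On the left side it was 0.37 at 75 to 100 kb and 0.05 over the 14 NDRs at 100 to 150 kb. Over the 22 NDRs beyond 150 kb, which reach the left end, it was 0.46, with 21 above 0 and 3 called. In MATα D the medians of the same 14 and 22 NDRs were 0.06 and 0.08. The profile of MATa D therefore had a stretch near 0 between the VP and the left end, while MATα D stayed near 0 in both. On the right side the median was 0.72 at 30 to 50 kb, 0.08 at 50 to 75 kb, 0.27 at 75 to 100 kb and 0.42 over the 5 NDRs beyond 100 kb, all of them above 0. The return toward the end was thus seen on both arms of the profile, with calls on the left.

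**Figure D2:**
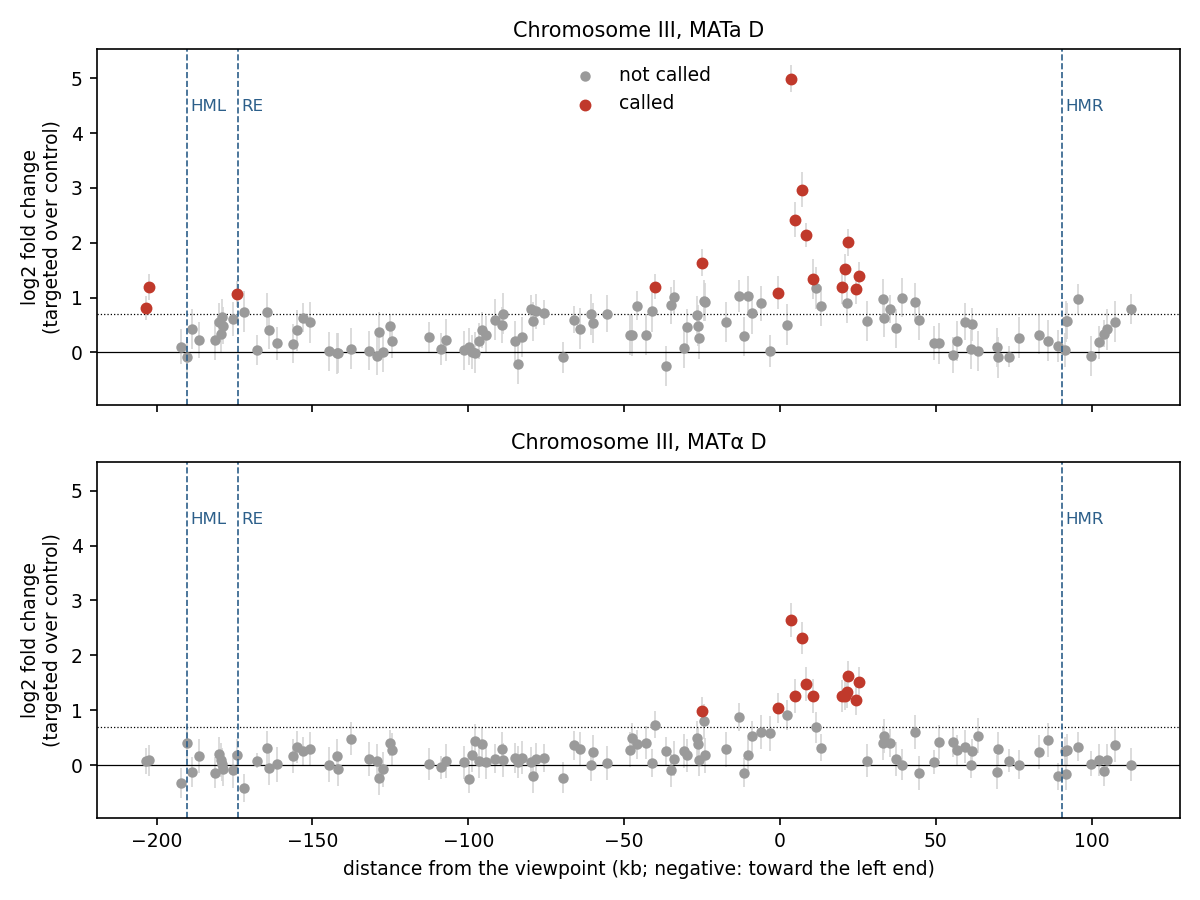
Log2 fold change (targeted over control, bars ± SE) of each NDR of chromosome III by distance from the VP in kb, in MATa D (top) and MATα D (bottom). Called NDRs are red. In MATa D, 4 NDRs beyond 30 kb were called, 3 of them at the left end and in the RE interval, and in MATα D all 13 calls lay within 30 kb.

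Of the 4 far-cis calls, the one nearest to the VP lay beside PMP1, which encodes a small regulator of the plasma membrane proton pump (III, 163242, 40.04 kb to the left). It had a log2 fold change of 1.20 (SE 0.23, adjusted p = 5.98e-05), against 0.74 in MATα D, where it was not called. It became a local call when the local limit was set at 50 kb.

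The NDR of the RE interval (III, 28977) lay 174 kb from the VP and was called. Its worked-out levels were 294 normalized reads in the targeted strain and 141 in the control, a log2 fold change of 1.06 (SE 0.24, adjusted p = 0.00351). It stayed called under each of the 3 alternatives run for it, Benjamini-Yekutieli adjustment, a base mean of 10 or more, and subtraction of the median of NDRs of like base mean, with adjusted p of 0.000483 to 0.0318. The other NDR between KAR4 and SPB1, near RDT1, a noncoding RNA gene expressed in MATa cells (III, 31198), had a log2 fold change of 0.74 (SE 0.38, adjusted p = 0.999) at a base mean of 13.3, too few reads to be called at this size.

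Neighbors of the RE within 5 kb were above 0 as well. The NDR at the start of KAR4, a regulator of karyogamy genes (III, 27779), had 0.61 (SE 0.31), and the NDRs at PRD1 and MIC10 to its left had 0.65 (SE 0.33) at III, 24361 and 0.49 (SE 0.34) at III, 24636. The last of the group, at PBN1 and LRE1 (III, 35426), had 0.05 (SE 0.28) at a base mean of 2.53. None of these 4 was called. All 6 NDRs of the interval and its 5 kb flanks were above 0 in MATa D, with a median of 0.63. In MATα D, MATa G and YBP2 their medians were -0.03, 0.04 and -0.07, with 3, 3 and 1 above 0.

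For the RE NDR itself the log2 fold change was 1.06 in MATa D, -0.00 in MATa G, 0.18 in MATα D and -0.11 at YBP2. The difference from MATα D was 0.88 (SE 0.38), with an unadjusted p of 0.0213 and an adjusted p of 0.999 over the 4823 shared NDRs, so it was not significant. The difference from MATa G was 1.06 (SE 0.38, adjusted p = 0.457), and it was not significant either. From YBP2, a VP on another chromosome, it differed by 1.17 (adjusted p = 0.0341), which passed. The call in 1 table and its absence in the other therefore did not amount to a tested difference between mating types. Both values were pulled toward 0 before they were compared, so the missing significance does not show that the mating types were alike.

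HML, the preferred donor of MATa cells, held no call. Its 3 NDRs had log2 fold changes of 0.11 (SE 0.32), -0.07 (SE 0.32) and 0.43 (SE 0.37), at base means between 3.79 and 9.53, and CHA1, a serine deaminase gene just outside (III, 16973), had 0.22 (SE 0.32) at a base mean of 57.7. At HMR the 2 NDRs inside the cassette had 0.11 (SE 0.29) and 0.04 (SE 0.32), at base means of 2.78 and 4.48. The 4 NDRs within 5 kb of HMR were between 0.22 and 0.97, the highest at GIT1, a glycerophosphoinositol transporter gene (III, 299040, SE 0.29, adjusted p = 0.0883). Low read numbers inside both silent cassettes left a difference of the size seen at the RE undetectable there.

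Outside chromosome III, 19 NDRs on 12 of the 15 other chromosomes were called, and chromosomes VI, XIII and XVI held none. The 19 fell into 5 that lay well inside a chromosome arm and 14 at telomeric regions. Beyond 30 kb, far-cis and trans together, 23 of 4793 NDRs were called (0.48%).

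The highest trans value belonged to TBS1, a zinc-cluster protein gene, at an NDR near the end of its reading frame (II, 541412). Its worked-out levels were 105 normalized reads in the targeted strain and 42.4 in the control, a log2 fold change of 1.31 (SE 0.32, adjusted p = 0.0081). ASG1, a zinc-cluster activator of stress genes, was called at an NDR likewise near the end of its reading frame (IX, 105311), with 117 normalized reads in the targeted strain against 52.6 in the control and a log2 fold change of 1.15 (SE 0.29, adjusted p = 0.0181). Both windows carried the long 3-base runs and few GC sites described above. In MATα D these NDRs had log2 fold changes of -0.22 and -0.27.

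At BAR1, the protease by which MATa cells degrade α-factor, the result depended on which end of the gene was read. The NDR at its promoter, 311 bases before its start (IX, 322031), had 25.6 normalized reads in the targeted strain and 26.0 in the control, a log2 fold change of -0.02 (SE 0.36, adjusted p = 0.999). The NDR over the end of the gene (IX, 324040), 1698 bases after its start, was called at 1.22 (SE 0.31, adjusted p = 0.0139), with 105 normalized reads in the targeted strain against 45.0 in the control. That NDR is nearest to the start of YNCI0008C, an aspartate tRNA gene on the other strand. In MATα D it had -0.30 (SE 0.31), and the difference between mating types was 1.52 (SE 0.44, unadjusted p = 0.000499, adjusted p = 0.641).

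The last 2 of the 5 lay beside a Ty element and beside SHE10. The NDR at NDJ1, a meiotic telomere protein gene, and the Ty genes YOL103W-A and YOL103W-B (XV, 117722) had 1.02 (SE 0.22, adjusted p = 0.00177), and every 50-base word of its window also occurred elsewhere in the genome. How its reads were placed was not tested. At the end of SHE10, upstream of VID30, a gene for a subunit of the ubiquitin ligase that degrades gluconeogenic enzymes (VII, 69284), the log2 fold change was 0.91 (SE 0.23, adjusted p = 0.0187).

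**Figure D3:**
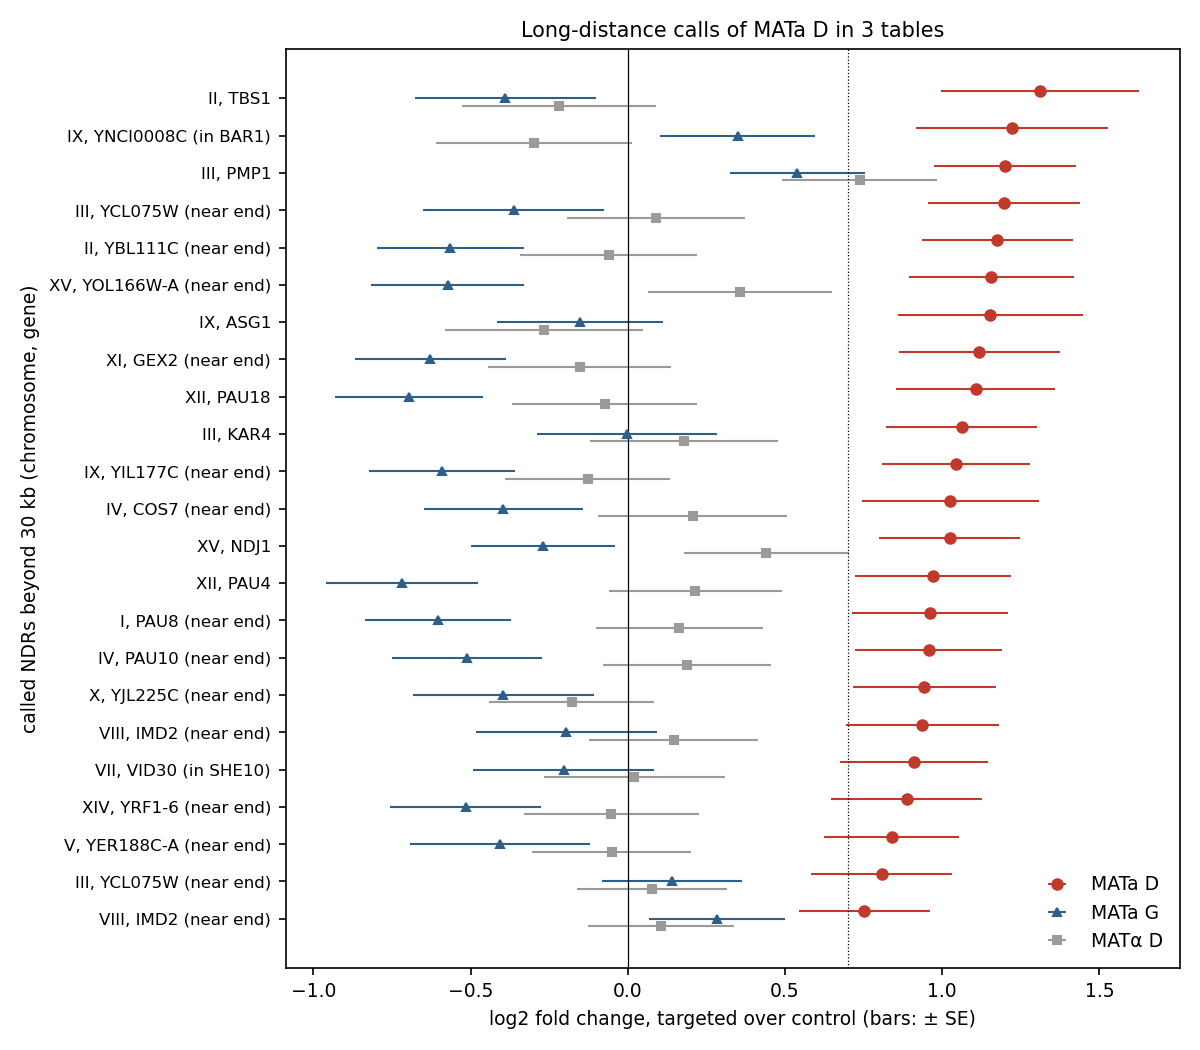
Log2 fold change (bars ± SE) of the 23 NDRs called beyond 30 kb in MATa D, with the values of the same NDRs in MATa G and MATα D. All 23 were lower in the other 2 tables, as the choice by their value in MATa D favors, and at 12 the difference from MATa G passed adjustment, while none did against MATα D.

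Chromosome ends held most of the long-distance calls. Under 10 kb from an end, 14 of 91 NDRs were called (15.4%), and at 10 kb or more 9 of 4702 were. The 91 had a median base mean of 117, against 23.0 for the others, so the comparison was repeated above a minimum base mean. Depth above that minimum was not matched. At base means of 100 or more, 13 of 53 near-end NDRs were called (24.5%) with a median log2 fold change of 0.58, and 6 of 553 elsewhere (1.08%) with a median of -0.13.

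The calls followed the annotated telomeric regions rather than distance alone, in a grouping chosen after values had been seen. These regions consist of the X element, the Y′ element where there is one, and the terminal repeats. Windows of 36 NDRs overlapped one, at 25 of the 32 ends, and all 36 had a log2 fold change above 0, between 0.36 and 1.20, with a median of 0.83. Of these, 16 were called, and they included all 14 calls under 10 kb and 2 on chromosome XII at 11.7 kb and 13.9 kb, where the region reaches that far. The other 57 NDRs under 10 kb from an end had a median of -0.04, with 24 above 0 and none called.

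At the left end of chromosome III the NDRs 0.748 kb and 0.016 kb from the end (III, 748 and III, 16), nearest to YCL075W, had 1.20 (SE 0.24, adjusted p = 0.000392) and 0.81 (SE 0.22, adjusted p = 0.0417). The second lay at the very tip, at a base mean of 849, and its window held no GC site. At YBP2 this NDR had 0.75 (adjusted p = 0.00842) and was called as well, and the difference of 0.06 (SE 0.30) was not significant. At the right end of the chromosome YCR108C (III, 315755) had 0.79 (SE 0.27, adjusted p = 0.266). PAU3, a seripauperin gene 9.28 kb from that end (III, 307338), had 0.34 (SE 0.25) at a base mean of 385.

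Ends on other chromosomes gave values of like size. YBL111C at the left end of II (6254) had 1.18 (SE 0.24), YOL166W-A at the left end of XV (468) 1.16 (SE 0.26), and GEX2, a proton-glutathione exchanger gene at the right end of XI (665880), 1.12 (SE 0.26). YIL177C, a Y′ helicase gene at the left end of IX (7424), had 1.04 (SE 0.23), and YRF1-6, another at the left end of XIV (7070), had 0.89 (SE 0.24). IMD2, the IMP dehydrogenase gene at the right end of VIII, had 2 called NDRs, at 0.94 (SE 0.24) and 0.75 (SE 0.21).

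Counted by ends, 28 of the 32 had an NDR under 10 kb and 12 had a call, 8 left ends and 4 right ends. Counted over telomeric regions at any distance, 9 of 15 ends with a Y′ element and an NDR in the region had a call, and 5 of 10 ends without a Y′ element. The median over the NDRs of an end was above 0 at 21 of the 28 ends.

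Part of these windows is shared between ends. Of the 36, 16 were over 50% repeated sequence, with 5 calls and a median of 0.80, and the 20 others had 11 calls and a median of 0.89. Without NDRs whose window was over 50% repeated, 9 of the 14 near-end calls and 17 of the 23 long-distance calls were left. At the left end of XV, whose window is printed above, no 50-base word occurred elsewhere. The ends of the w303 strains were not compared with the reference used for mapping.

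The same 36 NDRs moved together in other tables too, in either direction. Their median was 0.50 in MATα G, the switching experiment from the other mating type, with 36 of 36 above 0 and 1 called. It was 0.08 in MATα D (22 above 0), -0.44 in MATa G (9 above 0) and 0.06 at YBP2 (27 above 0). In the tables of OLE1, PUS2 and SHC1, VPs at other places, none of the 36 was above 0, with medians of -0.51, -0.70 and -0.90, and 25 of the 36 were called lower at SHC1. The labels do not state which control libraries the comparisons of OLE1, PUS2, SHC1 and YBP2 used, so some of these may share controls. Under 10 kb from an end, telomeric or not, YBP2 with 256 LacO copies at 1 h had 18 of its 219 calls. MATa D had 14 of its 35 calls there. The highest median of these NDRs was that of MATα G, 0.33, against 0.15 in MATa D. Over the 36 telomeric NDRs the MATa D median was the highest of the 21 tables, which choosing the grouping after values were seen may favor. What sets the direction of the telomeric NDRs in a table was not tested.

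**Figure D4:**
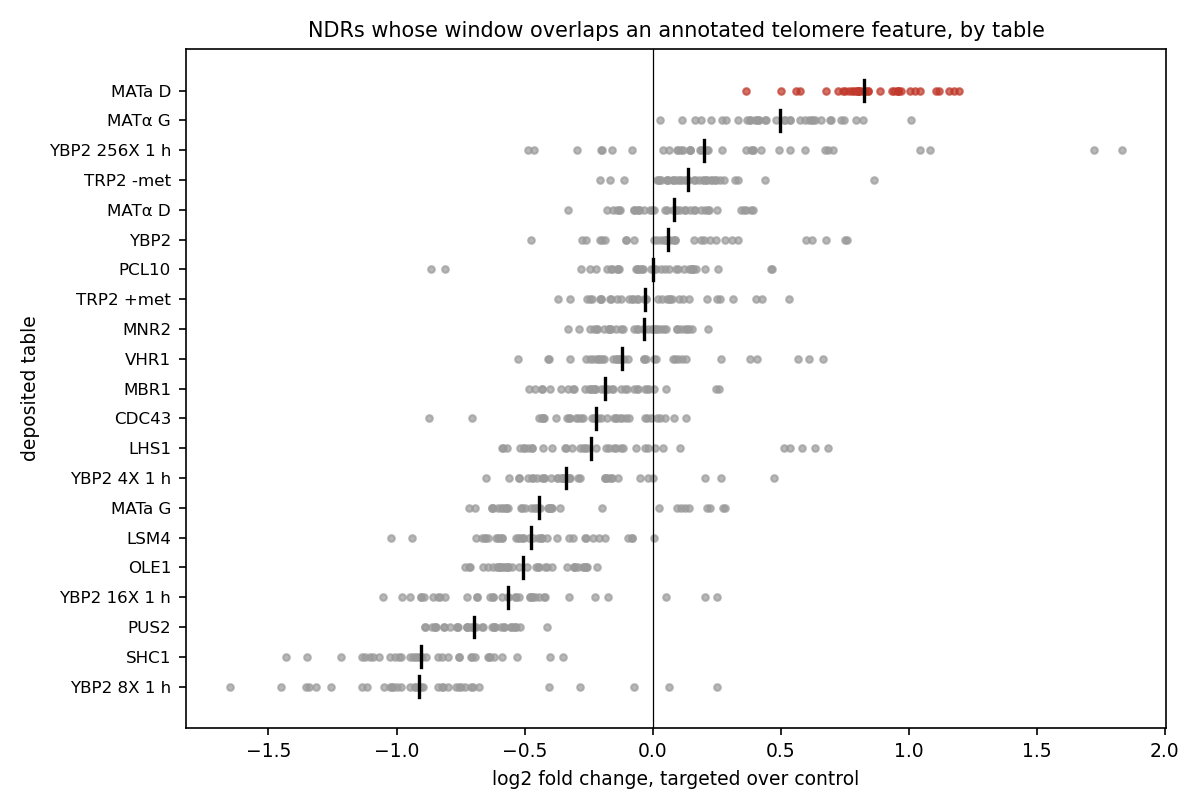
Log2 fold changes of the 36 NDRs whose window overlaps an annotated telomeric region, 1 point per NDR and 1 row per deposited table, with the median as a bar. MATa D (red) has the highest median, 0.83, and YBP2 with 8 LacO copies at 1 h the lowest, -0.91.

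Tested NDR by NDR, the telomeric signal of MATa D differed from MATa G but not, after adjustment, from MATα D. The choice of this set after values were seen may favor MATa D in each comparison. Against MATa G, all 36 were higher in MATa D and 12 passed adjustment, of 15 NDRs that passed in all (0.311%), with a median difference of 1.27. Against MATα D, all 36 were higher with a median difference of 0.79, 22 had an unadjusted p under 0.05 and none passed adjustment. Against YBP2, 35 of 36 were higher, with a median difference of 0.80, and 4 passed.

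**Figure D5:**
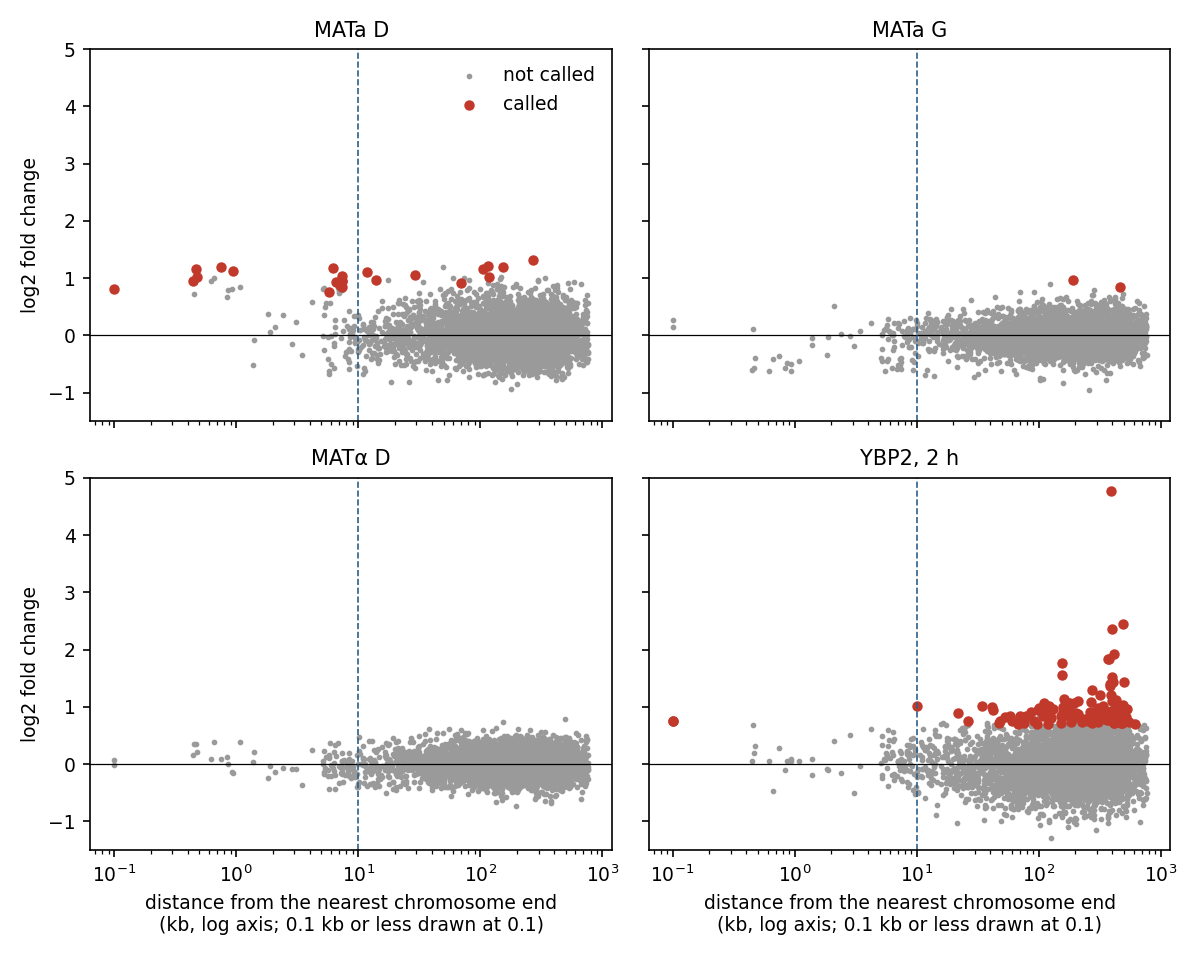
Log2 fold change of each NDR beyond 30 kb from MAT by distance from the nearest chromosome end in kb (log axis), in MATa D, MATa G, MATα D and YBP2 at 2 h, with called NDRs in red and the dashed line at 10 kb. Near-end calls number 14, 0, 0 and 2 in these 4 tables.

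Over all shared NDRs the test of MATa D against MATα D found 1 that was higher (0.0207%) and none lower. It was the NDR beside YCR043C (III, 206679), at 4.99 (SE 0.24) in MATa D and 2.65 (SE 0.31) in MATα D, a difference of 2.34 (adjusted p = 1.86e-05). Log2 fold changes were pulled toward 0 in each table separately, and how far unequal pull made this difference was not tested. All 12 local calls of MATa D were also called in MATα D, where 13 NDRs were called in all (0.269%) and none beyond 30 kb. Unadjusted, 63 NDRs were higher in MATa D and 12 lower at a p under 0.05.

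Against MATa G, where 4 local and 2 trans NDRs were called (0.124% of all), the local median was 0.99 in MATa D and 0.30 in MATa G. The effects of the switch, of the HO cut and its repair, and of the changes of carbon source cannot be told apart in this comparison. For the switching assay the study's methods describe a longer time with β-estradiol than the 2 h of the labels. Only the NDR at IMG1 and RRT12 passed the test among the local ones, at 2.97 in MATa D and 1.31 in MATa G (adjusted p = 0.0217). Outside the ends and chromosome III, TBS1 differed by 1.70 (adjusted p = 0.0233), and the NDR at NDJ1 and the Ty genes by 1.29 (adjusted p = 0.0207). No NDR was lower in MATa D, while 64 were lower at an unadjusted p under 0.05.

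Against YBP2, where 129 NDRs were called higher than in its control (2.67%), 20 NDRs were higher in MATa D (0.415%) and 76 lower (1.58%). Among the 20 were 9 local ones, the RE NDR, the end of BAR1 and TBS1. The lowest difference was at PKP2 (VII, 392018), a neighbor of YBP2, at 0.38 in MATa D and 4.77 at YBP2, and among the lowest were also NDRs on other chromosomes, such as DMA2 (XIV, 408072), at -0.43 in MATa D and 1.84 at YBP2. When the median of NDRs of like base mean was subtracted in each table, 50 were higher and 11 lower, so both counts depend on that setting.

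Genes whose expression depends on mating type held no call at their starts, in lists so short that the 0.726% called over all NDRs gives less than 1 call in each. Within 1 kb of the start of 6 of the 7 a-specific genes lay 8 NDRs, and none was called, with a median of 0.07 against -0.01 over all NDRs. The highest was at MFA2, an a-factor gene (XIV, 352649), with 0.79 (SE 0.35, adjusted p = 0.836) at a base mean of 6.88. The 4 NDRs of the α-specific genes, which include STE3, the a-factor receptor gene, had a median of -0.10. The 10 of the haploid-specific genes had 0.05, and the lowest of them was GPA1, the Gα subunit gene of the pheromone pathway (VIII, 115055), with -0.65 (SE 0.25, adjusted p = 0.521). The 4 NDRs at SIR1 to SIR4 had a median of -0.19, between -0.40 and 0.13.

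Several gene families that often lie near ends were read the same way. The 34 NDRs within 1 kb of the start of a PAU gene, 21 of them under 10 kb from an end, had a median of -0.03 and no call. The 9 at COS genes had 0.03 and no call, the highest at COS6 (VII, 1083602, 0.83, SE 0.26, adjusted p = 0.148), whose window overlaps the telomeric region. Both NDRs of YRF1 genes lay in such regions, at 0.89 and 0.82, and 1 was called. Families with no NDR under 10 kb from an end had medians on either side of 0. The 9 NDRs of DAN and TIR genes, cell wall mannoproteins of anaerobic growth, had a median of -0.38, with 1 above 0. The 11 of hexose transporter genes had -0.15, with 3 above 0, and the 14 of thiamine genes -0.17, with 5 above 0. The 1 NDR of an AAD gene had 0.47 and the 1 of a FLO gene -0.12. None of these NDRs was called, where 0.726% of all NDRs were.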

How the data were processed

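Methylated DNA was enriched with a 5-methylcytosine antibody in 2 targeted and 2 control libraries. The authors trimmed reads with fastp 0.23.2, mapped them to sacCer3 with BWA 0.7.17, counted them over NDRs with featureCounts 2.0.3 and compared strains with DESeq2 1.38.0. The NDR at the HIS3 marker was excluded by the authors. The base mean column of the deposited tables is a signal, the mean normalized read count over the 4 libraries, so it is the only measure of depth. The log2 fold changes and their SEs were deposited by the authors, shrunken toward 0. The deposited test statistic and p columns hold the authors' own comparison and were not used.

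P-values were computed as two-sided normal tests of log2 fold change over SE, adjusted by Benjamini-Hochberg over 4823 NDRs. They thus rest on the authors' estimates. Differences between tables used the root of the summed squared SEs. NDRs were called at a log2 fold change over 0.7 and an adjusted p under 0.05, local up to 30 kb and near an end under 10 kb. NDRs carry genes whose start lies within 1 kb, otherwise the nearest gene. Named are the called NDRs beyond 30 kb, the highest local ones and members of fixed gene lists; other NDRs were named after their values were seen. The members and lists were chosen with earlier results of these data known. The grouping by telomeric region, the motif ATAAACA and the 3-base runs were chosen after values were seen. A window of 200 bases from each NDR start was read from R64, and repeated sequence means 50-base words found elsewhere. The scripts were tested on simulated data (Python 3.11.15, numpy 2.4.6, pandas 2.3.3, scipy 1.17.1, matplotlib 3.10.9). Cutoffs, adjustment, base mean minimum, recentering, the viewpoint position, distance limits and repeats were varied.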

Additional observations from a re-analysis of the deposited data

Results flagged for a closer look

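These NDRs had log2 fold changes that differed significantly between MATa D and another table, by the test of the difference itself. Against MATα D the only one was the NDR beside YCR043C on chromosome III (206679), higher in MATa D by 2.34.

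Against MATa G, 15 NDRs were higher in MATa D, and 12 of them lay in telomeric regions. The differences were 1.80 at XII, 11732 near PAU18, 1.75 at XI, 665880 near GEX2, 1.74 at II, 6254 near YBL111C and 1.73 at XV, 468 near YOL166W-A. A neighbor of the last, at XV, 622, differed by 1.58. Next came 1.69 at XII, 1064248 near PAU4, 1.64 at IX, 7424 near YIL177C, 1.56 at I, 446 near PAU8 and 1.56 at III, 748 near YCL075W. The smallest telomeric ones were 1.47 at IV, 1524598 near PAU10, 1.41 at XVI, 6844 at YRF1-7 and 1.40 at XIV, 7070 at YRF1-6. The other 3 were TBS1 at 1.70, the local NDR at IMG1 and RRT12 at 1.66 and the repeated window at NDJ1 and Ty genes at 1.29. The telomeric NDRs had a median log2 fold change of 0.83 in MATa D and -0.44 in MATa G, so both tables departed from 0. Carbon source, HO induction and the other steps of the switching assay cannot be told apart in these differences.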

How the results depend on the processing

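No paired analysis was possible because the deposited tables hold no value per library, and for the same reason leaving out each replicate could not be run. The 23 long-distance calls became 13 at a log2 cutoff of 1, 9 with Benjamini-Yekutieli adjustment and 42 when the median log2 fold change of NDRs of like base mean was subtracted. The 14 calls near ends became 6 at a cutoff of 1, 5 with Benjamini-Yekutieli adjustment and 9 without repeated windows. Against MATa G, the 15 higher NDRs became 35 after that subtraction and 7 with Benjamini-Yekutieli adjustment. Against YBP2, the 20 higher became 50 and 7, and the 76 lower became 11 and 33, under the same alternatives. Local calls ranged from 9 to 13, no NDR was called lower under the 5 alternatives run, and the RE NDR stayed called and the BAR1 promoter NDR uncalled under the 3 run for each. Single NDRs with few reads, such as those inside HML and HMR, could not be resolved at this depth.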

Other observations

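Some NDRs missed the call by little. The divergent GAL10 and GAL1 promoter (II, 278511), where the switching strains carry the HO construct, had a log2 fold change of 0.83 (SE 0.24, adjusted p = 0.0744) in MATa D. The same NDR had 0.71 in MATa G, 0.52 at YBP2, whose strain lacks the HO construct, and -0.22 in MATα D. It was called in none of these. Its difference from MATα D was 1.05 (SE 0.33, adjusted p = 0.641). The NDR at LYP1 and ALP1, amino acid permease genes (XIV, 138262), had 0.89 (SE 0.26, adjusted p = 0.0644).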
